A study of Mus musculus with 8 samples.

Results

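Adipose stem and progenitor cells (ASPCs) were followed by 9 surface marker genes, *Pdgfra*, *Pdgfrb*, *Ly6a*, *Cd34*, *Dpp4*, *Pi16*, *Cd55*, *Icam1* and *F3*, which were chosen by name out of 38365 genes in the sequenced inguinal white adipose tissue (ING WAT). All 9 passed the filter of a mean of at least 1 FPKM (fragments per kilobase of transcript, relative to all mapped fragments, a level corrected for length), as did 16097 genes in all. The tissue came from C57BL/6j mice, 4 killed at postnatal day 21 (PN21, the end of weaning: m1, m49, m138, m145) and 4 at postnatal day 98 (PN98, young adulthood: m35, m106, m114 and m125). Dams and young pups had AIN93G diet, and by the study's methods males were raised to PN98, on AIN93M or a western style diet, while females were killed at PN21. Which diet the sequenced PN98 mice had, and the sex of the sequenced PN21 mice, is not given in the sources used here. The Y-linked genes *Ddx3y*, *Eif2s3y*, *Kdm5d* and *Uty* were expressed in all 8 mice, *Ddx3y* at 18.1 to 22.1 FPKM at PN21 and 19.9 to 25.9 FPKM at PN98. By these genes, each of the 8 mice carried a Y chromosome, as males do. *Xist* was under 1 FPKM in every mouse, at 0.247 to 0.832 FPKM at PN21 and at 0 to 0.00704 FPKM at PN98.

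ASPCs are the stromal cells from which new adipocytes arise, and they sit in the walls of small vessels and in the connective tissue between fat lobules. In mouse subcutaneous fat they are known as a hierarchy of *Dpp4*+ *Pi16*+ interstitial progenitors, *Icam1*+ committed preadipocytes, and *F3*+ cells called adipogenesis regulators (Aregs), which restrain the differentiation of their neighbours. None of the markers belongs to ASPCs alone: endothelial cells also carry *Cd34*, *Ly6a* and *Icam1*, mural cells *Pdgfrb*, and leukocytes *Icam1*.

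*F3*, which encodes tissue factor (CD142), the receptor that starts blood coagulation, was the single ASPC marker whose difference between the ages passed the test. Its level was 12.7, 11.2, 9.95 and 11.6 FPKM in the PN21 mice (in the order m1, m49, m138, m145) and 17.9, 22.0, 28.0 and 23.1 FPKM in PN98 mice m35, m106, m114 and m125. Every PN98 mouse was above every PN21 mouse. Mean *F3* was 11.3 ± 1.12 FPKM at PN21 and 22.7 ± 4.13 FPKM at PN98 (SD, n = 4 each), a 2.01-fold higher level. On the scale of log2(FPKM + 1), on which all differences below are given as PN98 minus PN21 and which understates changes of low genes, *F3* was higher by 0.93 (standard error 0.17, 95% interval 0.54 to 1.32, adjusted p = 0.0227 from limma over all genes). In whole tissue, more or fewer cells of a type and more or less RNA per cell cannot be told apart. The call was close to its threshold: in 6 of the 8 fits that left out 1 mouse, all but those without m35 and without m125, *F3* had an adjusted p between 0.0572 and 0.0768, while its difference stayed between 0.83 and 1.04. Summed adipocyte genes also separated the ages, at 12284 to 22532 FPKM at PN21 and 33221 to 43423 FPKM at PN98. Among PN98 mice that sum was lowest in m35, as was *F3*, but highest in m125, where *F3* was highest in m114. The part of adipocytes or of other cells in the *F3* values was not tested.

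Of the 9 markers, 1 was thus called higher and 0 lower at PN98 with an adjusted p under 0.05 in limma, beside 2.37% and 2.96% of all genes tested. With an unadjusted p under 0.05, 1 was higher and 2 were lower, beside 8.19% and 19.1% of all genes. The ages did not overlap in 2 of the 9, *F3* and *Cd34*, beside 16.1% of all genes. In the mean, 7 of the 9 were lower at PN98, which held for 67.0% of all genes. Their median difference was −0.29, beside −0.21 for all genes. Over all genes, 381 were called higher and 476 lower as deposited. Scaling every mouse to an equal sum over nuclear genes gave 561 and 275 instead, and scaling by median of ratios gave 769 and 459. The median of all genes then moved to 0.01 and −0.02, and 5 of the 9 markers remained lower at PN98. *F3* was called under both scalings, with differences of 1.18 and 1.15.

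**Figure D1:**
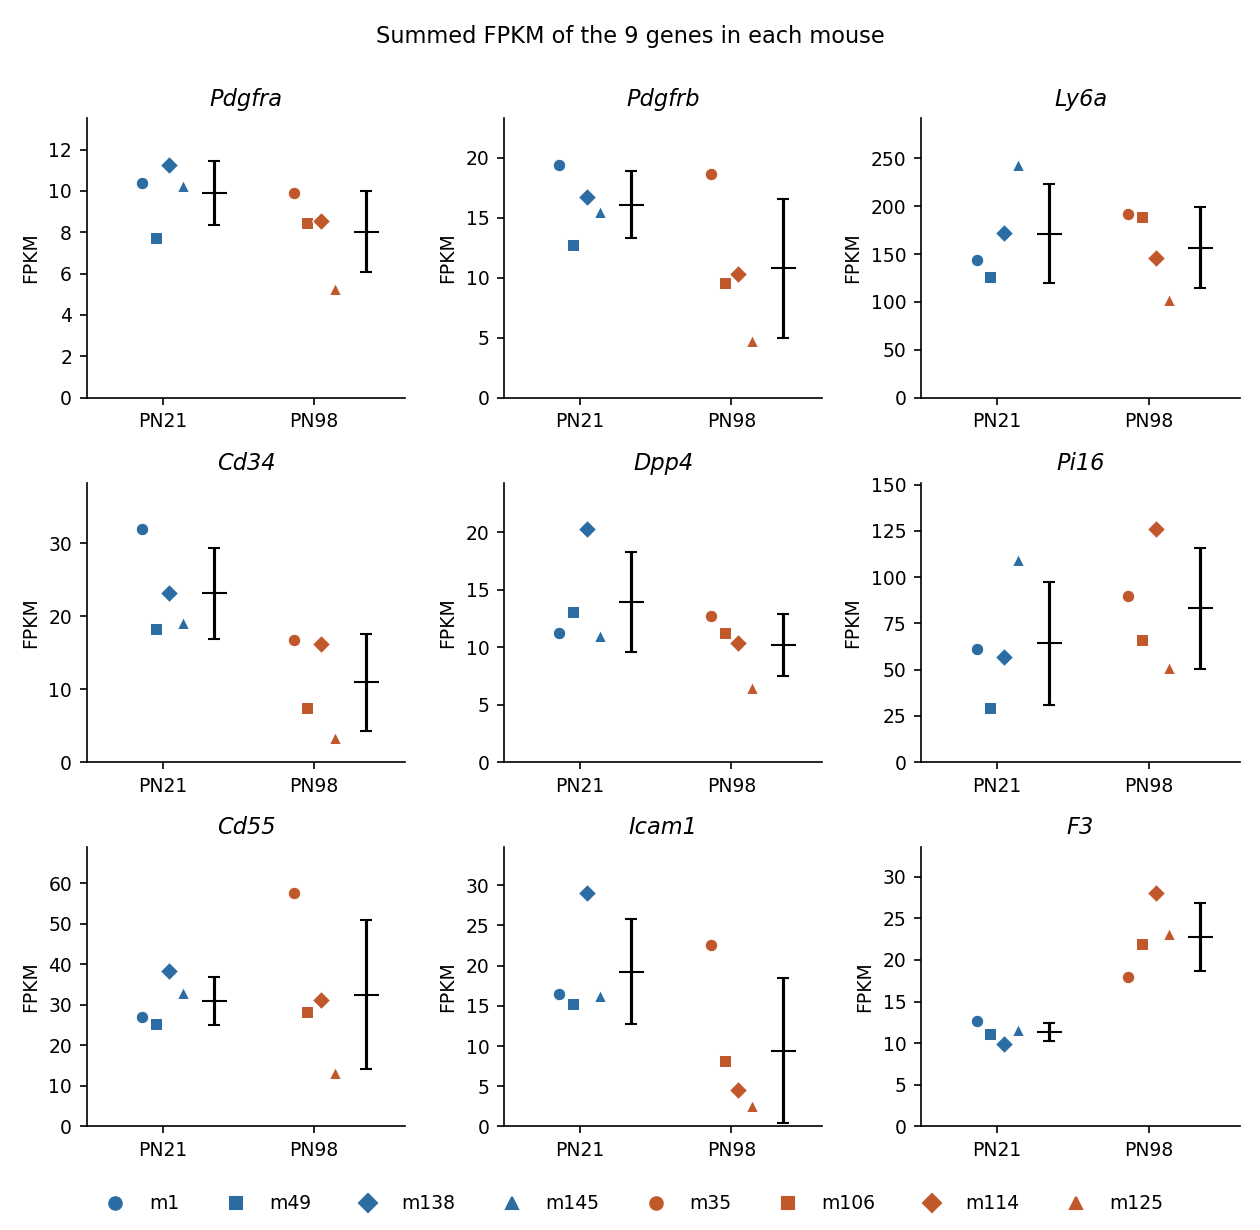
Summed FPKM of each of the 9 markers (vertical axes, linear, from 0) in 4 PN21 mice (blue) and 4 PN98 mice (orange), with 1 symbol per mouse and the mean ± SD in black. All PN98 mice lie above all PN21 mice for F3, all lie below for Cd34, and m125 is the lowest PN98 mouse in 8 of the 9 panels.

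Among the tissue's cells, adipocyte genes were abundant, with *Adipoq* (adiponectin) at 817 to 1279 FPKM at PN21 and 2512 to 3653 FPKM at PN98. Mesothelial *Msln*, *Upk3b* and *Wt1* were at or under 0.240 FPKM in all mice, whereas *Krt19*, the other mesothelial gene of the list and also an epithelial one, lay at 1.27 to 9.73 FPKM at PN21 and 0.589 to 0.890 FPKM at PN98. Lymph node and muscle RNA varied between mice. Summed lymph node stroma genes lay at 738 to 1692 FPKM at PN21, 508 in m35 and 14.0 to 72.2 in the other PN98 mice. In m35, *Glycam1* (105 FPKM) and *Madcam1* (2.64) lay below their PN21 ranges of 578 to 1307 and 3.39 to 7.15 FPKM. There *Ccl21a* (304 FPKM) lay above its PN21 range of 119 to 285 FPKM, and *Ccl19* and *Cxcl13* lay within theirs. Summed skeletal muscle genes lay at 85.9 to 701 FPKM at PN21 and at 451 to 2822 FPKM at PN98. The part of lymph node and muscle RNA in the results below was not tested. The deposited data hold no read counts, so that the depth behind each value is unknown.

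The pan-ASPC markers come first. *Pdgfra* and *Pdgfrb* encode receptor tyrosine kinases for platelet-derived growth factors, and *Pdgfra* is the gene most often used to mark fibroblastic progenitors. *Pdgfra* lay at 10.4, 7.71, 11.3 and 10.3 FPKM in m1, m49, m138 and m145 and at 9.90, 8.44, 8.56 and 5.24 FPKM in m35, m106, m114 and m125. The ages overlapped, since 3 of the 4 PN98 mice were above PN21 mouse m49. The difference in *Pdgfra* was −0.29 (standard error 0.21, 95% interval −0.77 to 0.20, adjusted p = 0.390 from limma).

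This value depends on which transcripts are summed. The deposited gene labels put 3 transcripts under *Pdgfra*, and 1 of these is a feature of 74 bases that GENCODE vM21 assigns to the microRNA gene *Mir7025*, on the plus strand of chromosome 5 (GRCm38, chr5:75176831-75176904). The feature was listed at 46.2 FPKM in m1, at 159 FPKM in m114 and at 0 in the other 6 mice. Its hairpin runs across the end of exon 10 of 23 of *Pdgfra* (chr5:75176667-75176860). The sequences below, from RefSeq (GRCm38.p6), show how the feature overlaps *Pdgfra*: in the hairpin, capitals mark the 30 bases that are coding sequence of *Pdgfra*, and the rest lies in the intron. In the mature microRNAs, capitals mark the seed (bases 2 to 8). The 5p microRNA lies in the exon with all 24 bases, and the 3p microRNA lies in the intron with all 22.
Mir7025 hairpin: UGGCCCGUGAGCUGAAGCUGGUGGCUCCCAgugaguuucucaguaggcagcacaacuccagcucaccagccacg
mmu-miR-7025-5p: cGUGAGCUgaagcugguggcuccc
mmu-miR-7025-3p: cAGCACAAcuccagcucaccag

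Whether the fragments counted there came from the messenger or from the microRNA was not tested. With the feature included, *Pdgfra* would stand at 56.6 FPKM in m1 and 168 FPKM in m114, and its difference between the ages turned to 0.16 (standard error 1.07, adjusted p = 0.937 from limma). The feature was left out of *Pdgfra* here because GENCODE vM21 assigns it to *Mir7025*.

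The other two transcripts of *Pdgfra* encode the same protein and share 97.5% of the bases of the shorter, differing mainly in their first exon. ENSMUST00000000476 lay at 6.94, 7.70, 11.3 and 8.99 FPKM in m1, m49, m138 and m145 and at 2.73, 6.04, 3.64 and 2.45 FPKM in m35, m106, m114 and m125, lower in every PN98 mouse than in any PN21 mouse. ENSMUST00000168162 lay at 3.47, 0.00439, 0.00642 and 1.27 FPKM and at 7.17, 2.40, 4.92 and 2.80 FPKM in the same order. All 4 PN98 mice had more than 2 FPKM of the second form, as did m1, whereas m49 and m138 all but lacked it. Neither form passed the test at the transcript level, where log2(FPKM) is compared with no pseudocount: the difference was −1.30 (standard error 0.32, adjusted p = 0.104 from limma) for the first and 5.22 (standard error 2.29, adjusted p = 0.236) for the second. Fragments of the shared bases are divided between the forms by estimation, so the division is uncertain.

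**Figure D2:**
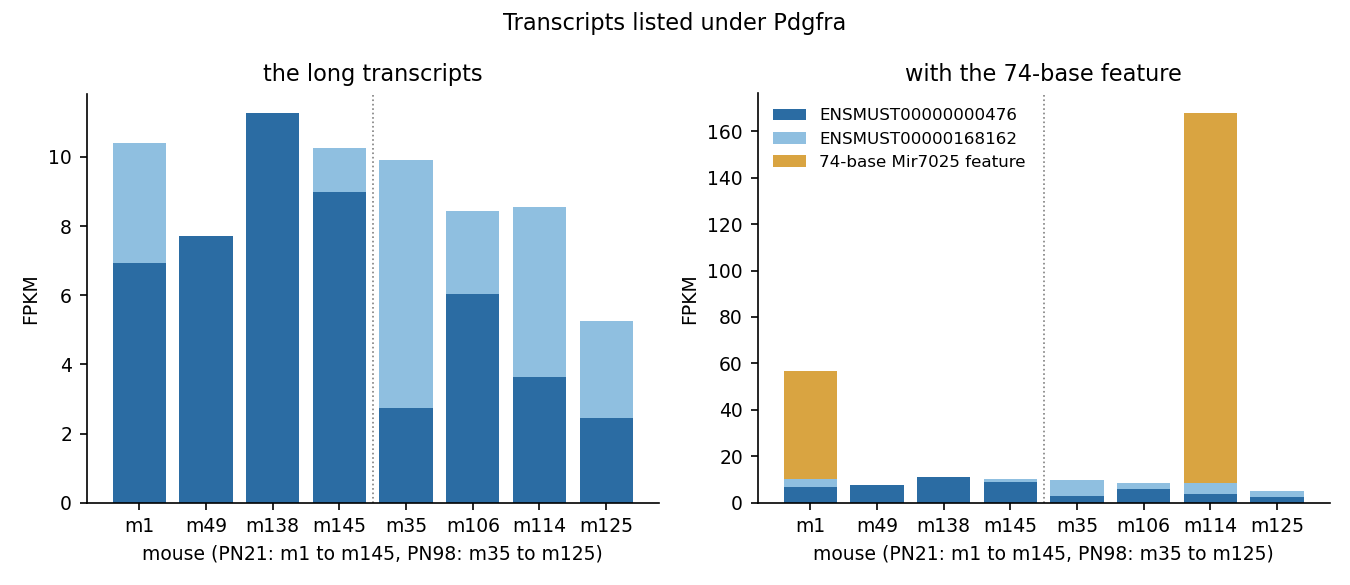
FPKM (vertical axes, linear, from 0) of the transcripts that the deposited labels list under Pdgfra, stacked for each of the 8 mice, left for the long transcripts alone and right with the 74-base Mir7025 feature. The feature is above 0 in m1 and m114 alone, where it exceeds the long transcripts.

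*Pdgfrb* lay at 19.4, 12.8, 16.8 and 15.5 FPKM at PN21 and at 18.6, 9.55, 10.3 and 4.69 FPKM at PN98, in the same order of mice. Only m35 among the PN98 mice was within the PN21 range. Its difference of −0.66 (standard error 0.35, 95% interval −1.46 to 0.14, adjusted p = 0.249 from limma) did not pass the test, and 7 of the 8 fits that left out 1 mouse gave no call either. Without m35 it was −0.95 (adjusted p = 0.0475 from limma), in a fit that called 2859 genes lower, and without m125 it was −0.35 (adjusted p = 0.444). Summed mural genes, of the cell type that also carries *Pdgfrb*, were 325 FPKM in m35, 63.1 FPKM in m125 and no more than 191 FPKM at PN21. Without the contractile gene *Acta2*, which was at 189.6 FPKM in m35, the sums were 136 FPKM in m35, 55.0 FPKM in m125 and 82.0 to 135 FPKM at PN21.

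*Ly6a* encodes stem cell antigen 1 (Sca-1), a membrane-anchored protein by which ASPCs are commonly sorted, and had the highest level of the 9. It lay at 144, 126, 172 and 243 FPKM in m1, m49, m138 and m145 and at 192, 188, 146 and 102 FPKM in m35, m106, m114 and m125. The ages overlapped over most of their range. The difference was −0.13 (standard error 0.28, 95% interval −0.76 to 0.51, adjusted p = 0.787 from limma), and it was positive when mice were scaled to nuclear genes (0.14) or by median of ratios (0.10). The neighbouring family members *Ly6c1*, *Ly6c2* and *Ly6e* are similar in sequence, so fragments may have been divided between them.

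*Cd34*, a sialomucin of progenitor and endothelial cells, had the second lowest difference of the 9. Its level was 31.9, 18.3, 23.2 and 19.1 FPKM in m1, m49, m138 and m145 and 16.8, 7.41, 16.2 and 3.33 FPKM in m35, m106, m114 and m125. All PN98 mice lay below all PN21 mice, with m35 and m114 close to the lowest PN21 mouse and m125 far below. The means were 23.1 ± 6.25 and 10.9 ± 6.64 FPKM (SD, n = 4 each). The difference was −1.20 (standard error 0.46, 95% interval −2.24 to −0.15) with an unadjusted p of 0.0296 and an adjusted p of 0.147 from limma, and therefore did not pass over all genes. None of the 8 fits that left out 1 mouse called it, with −0.78 without m125 (adjusted p = 0.221), and scaling to nuclear genes gave −0.96 (adjusted p = 0.259). With mice weighted by limma arrayWeights it was called (−1.46, adjusted p = 0.0202). In a two-sided exact permutation test of each marker, *Cd34* and *F3* gave p = 0.0286, which is the smallest that 4 against 4 mice allow and restates that the ages did not overlap, and the other 7 gave 0.114 or more. Summed endothelial genes were 220 to 383 FPKM at PN21 and 457, 264, 291 and 117 FPKM in m35, m106, m114 and m125.

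*Dpp4*, *Pi16* and *Cd55* mark the interstitial progenitors. *Dpp4* encodes dipeptidyl peptidase 4, a membrane enzyme that trims peptide hormones and chemokines. It lay at 11.3, 13.1, 20.3 and 11.0 FPKM at PN21 and at 12.7, 11.3, 10.4 and 6.43 FPKM at PN98, in the same order of mice. Of the PN98 mice, m35 and m106 lay within the PN21 range and m114 and m125 below it. Its difference was −0.41 (standard error 0.26, 95% interval −1.01 to 0.19, adjusted p = 0.327 from limma).

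*Pi16* encodes a secreted or membrane-bound peptidase inhibitor of fibroblasts and, apart from *F3*, was the only marker with a positive difference as deposited. It lay at 61.1, 29.4, 56.7 and 109 FPKM in m1, m49, m138 and m145 and at 89.7, 65.8, 126 and 51.1 FPKM in m35, m106, m114 and m125. The spread within each age was wide, and the ages overlapped. The difference of 0.43 (standard error 0.42, 95% interval −0.53 to 1.40, adjusted p = 0.509 from limma) allows a higher as well as a lower level at PN98, and it moved to 0.12 without m49 and to 0.74 without m145.

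*Cd55* encodes decay-accelerating factor, which shields cells from complement. It lay at 27.0, 25.3, 38.4 and 32.9 FPKM in m1, m49, m138 and m145 and at 57.4, 28.2, 31.2 and 13.2 FPKM in m35, m106, m114 and m125. The PN98 mice were thus spread on both sides of the whole PN21 range. The difference was −0.08 (standard error 0.39, 95% interval −0.99 to 0.82, adjusted p = 0.907 from limma), and scaling to nuclear genes turned it to 0.17 and median of ratios scaling to 0.14. Its relative *Cd55b* lay between 0.561 and 4.73 FPKM, and how fragments of the pair were divided is uncertain.

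*Icam1* encodes an adhesion molecule that binds leukocyte integrins, and on ASPCs it marks committed preadipocytes. It lay at 16.5, 15.3, 29.0 and 16.3 FPKM in m1, m49, m138 and m145 and at 22.6, 8.13, 4.47 and 2.56 FPKM in m35, m106, m114 and m125. Apart from m35, the PN98 mice were below every PN21 mouse. The difference of −1.28 (standard error 0.54, 95% interval −2.53 to −0.03) had an unadjusted p of 0.0452 and an adjusted p of 0.176 from limma. Of the 8 fits that left out 1 mouse, 7 did not call it: without m125 it was −0.89 (adjusted p = 0.322 from limma). Without m35 it was −1.80 (adjusted p = 0.0169), in the fit that called 2859 genes lower.

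Leukocytes also carry *Icam1*. The sum of 8 leukocyte genes was 330, 467, 758 and 578 FPKM in m1, m49, m138 and m145 and 683, 159, 85.8 and 30.5 FPKM in m35, m106, m114 and m125. The mouse with the highest *Icam1* of each age, m138 and m35, also had the highest leukocyte sum of that age, and the PN98 mice stood in the same order for both. The other PN21 mice did not, since m1 had the lowest leukocyte sum but more *Icam1* than m49. Nor did every gene of the list: the macrophage gene *Adgre1* lay at 10.4, 7.19, 10.4 and 2.99 FPKM in m35, m106, m114 and m125. All 8 leukocyte genes were lower at PN98 in the mean, beside 67.0% of all genes, and 0 passed the adjusted test. An unadjusted p under 0.05 from limma held for 2 of them, beside 19.1% of all genes lower at that p. The part of leukocytes in the *Icam1* values was not tested. *Itgal*, the integrin chain of the *Icam1* receptor LFA-1 on lymphocytes, had a difference of −1.85 (standard error 0.67, adjusted p = 0.136 from limma). *Itgam*, the chain of the *Icam1* receptor on myeloid cells, had 0.07 (adjusted p = 0.917), and their shared partner *Itgb2* had −0.74 (adjusted p = 0.326).

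**Figure D3:**
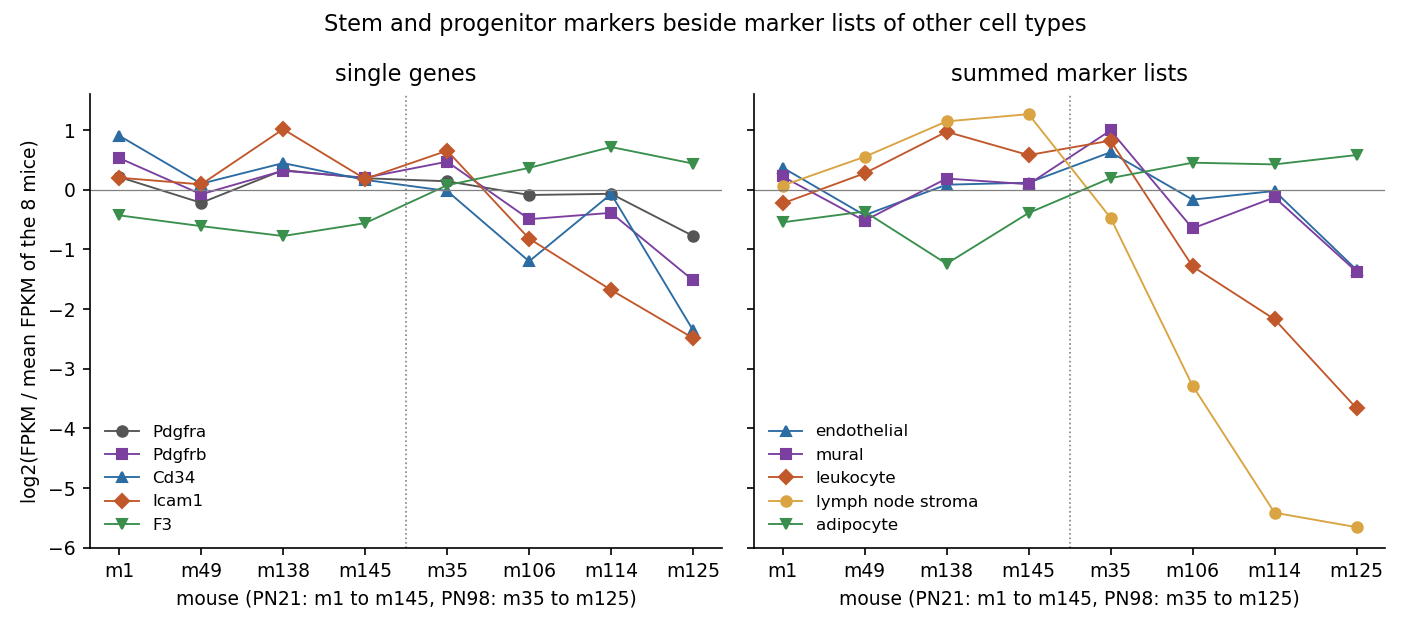
Log2 of FPKM over the mean FPKM of the 8 mice (vertical axes), for 5 of the markers on the left and for summed marker lists of other cell types on the right, by mouse, with lines only to guide the eye. Icam1 and the leukocyte sum are both highest at PN98 in m35 and lowest in m125, while F3 is above its mean in all 4 PN98 mice.

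Much of the spread at PN98 lay between m35 and m125. Among the 4 PN98 mice, m125 had the lowest level of 8 of the 9 markers, all but *F3*, and was the lowest of all 8 mice in 7, whereas m35 had the highest level of 7. Of all genes tested, 50.6% were lowest at PN98 in m125 and 51.5% highest in m35. Scaled to nuclear genes, m125 was still lowest in 8 markers, beside 44.2% of all genes, while m35 was highest in 3. *F3* stood apart, being lowest at PN98 in m35 and highest in m114.

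The order of the levels, which FPKM allows to be compared between genes, also placed *F3* differently at the 2 ages. At PN21 the mean levels were in the order *Ly6a* (171 FPKM), *Pi16* (64.1), *Cd55* (30.9), *Cd34* (23.1), *Icam1* (19.2), *Pdgfrb* (16.1), *Dpp4* (13.9), *F3* (11.3) and *Pdgfra* (9.91). Of neighbours in this order, *Ly6a* and *Pi16* alone had ranges over the mice that did not overlap. At PN98 *F3* stood in the place after *Ly6a* (157 FPKM), *Pi16* (83.1) and *Cd55* (32.5), and its range lay above that of the next gene, *Cd34*, while all other neighbours overlapped. *Cd34*, *Pdgfrb*, *Dpp4*, *Icam1* and *Pdgfra* then lay between 8.04 and 10.9 FPKM in the mean.

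Ratios within a mouse do not depend on how the mice are scaled. The level of *F3* over that of *Pdgfra* was 1.22, 1.45, 0.883 and 1.13 in m1, m49, m138 and m145 and 1.81, 2.60, 3.27 and 4.40 in m35, m106, m114 and m125. *F3* was the single marker of the 8 whose ratio to *Pdgfra* did not overlap between the ages, beside 14.2% of all genes. *Cd34* exceeded *F3* by 1.64-fold to 2.52-fold in the PN21 mice, and in the PN98 mice the ratio of *Cd34* to *F3* was 0.936, 0.337, 0.579 and 0.144. Since every PN98 mouse had more *F3* and less *Cd34* than any PN21 mouse, this ratio had to separate the ages. These ratios were computed after the levels were seen and were not tested.

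**Figure D4:**
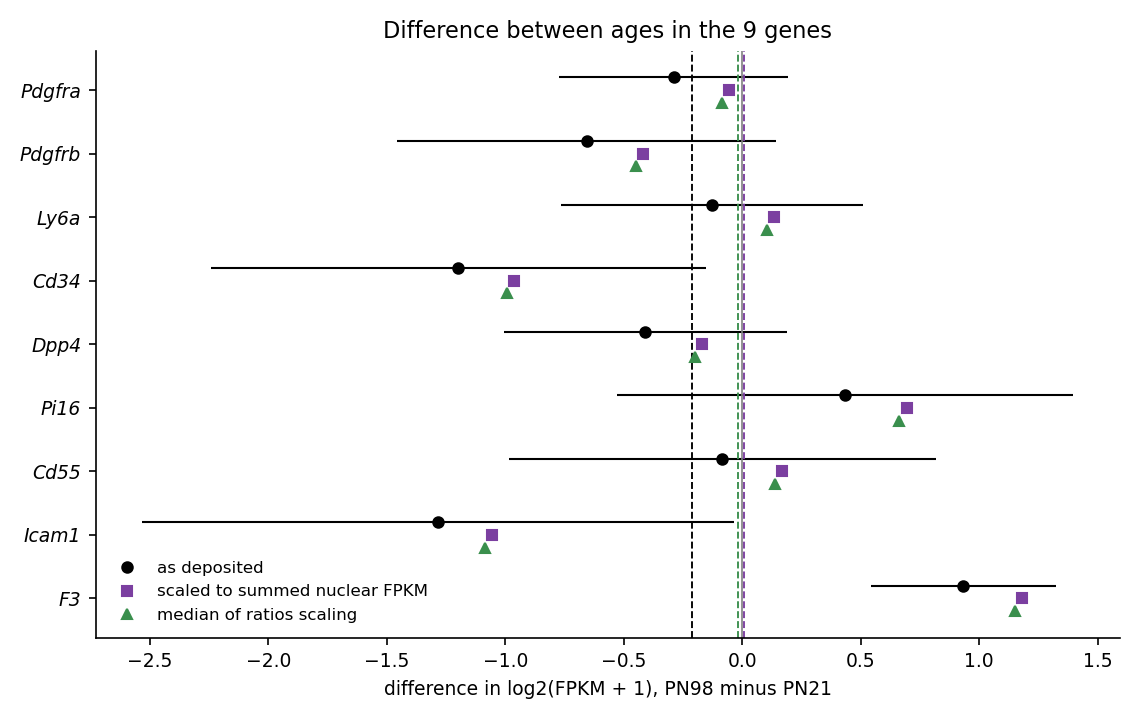
Difference in log2(FPKM + 1), PN98 minus PN21 (horizontal axis), of the 9 markers, as deposited with its 95% interval (black) and under 2 other scalings (points only). Dashed lines give the median of all genes under each scaling (−0.21, 0.01 and −0.02), and F3 alone has an interval above 0.

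At the transcript level, GENCODE vM21 assigns 23 of the deposited transcripts used here to the 9 genes. Of these, 16 were above 0 in all 8 mice with a mean above 2 FPKM at either age. Of these 16, 0 had an adjusted p under 0.05 in limma, beside 1.36% of 23159 transcripts. The only deposited transcript of *F3* had a difference in log2(FPKM) of 0.99 (standard error 0.19, adjusted p = 0.0561). *Ly6a*, *Cd34*, *Icam1* and *F3* each have 1 deposited transcript, so that their levels rest on no division between deposited forms. Other forms of these genes were not examined. The main *Pdgfrb* transcript, ENSMUST00000025522, had a difference of −0.86 (standard error 0.43, adjusted p = 0.274). In *Dpp4*, the full-length ENSMUST00000047812 and the retained-intron form ENSMUST00000156871 had differences of −0.46 (adjusted p = 0.328) and −0.96 (adjusted p = 0.170). In *Pi16*, the coding forms ENSMUST00000114699 and ENSMUST00000114701 had differences of 0.43 and 0.32 (adjusted p = 0.544 and 0.705).

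Other genes known from the same progenitor states gave differences in both directions. Of 7 further interstitial progenitor genes tested, 0 were called, beside 2.37% of all genes higher and 2.96% lower, with a median difference of −0.26. *Anxa3*, an annexin, had −0.57 (adjusted p = 0.217 from limma), and *Pcolce2*, an enhancer of procollagen processing, had 0.64 (adjusted p = 0.353). *Wnt2* and *Bmp7*, both signalling ligands, had an unadjusted p under 0.05 in limma, beside 19.1% of all genes lower at that p. Both were lower in every PN98 mouse than in any PN21 mouse, beside 16.1% of all genes without overlap. *Wnt2* lay at 2.38 to 5.22 FPKM at PN21 and at 0.924 to 1.88 FPKM at PN98. *Bmp7* lay at 1.15 to 2.86 FPKM at PN21 and at 0.601 to 1.12 FPKM at PN98.

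Of 8 committed preadipocyte genes, 1 was called lower and 1 higher, beside 2.96% and 2.37% of all genes, with a median of 0.17. *Dlk1*, also named *Pref1*, an inhibitor of adipocyte differentiation, lay at 14.8, 25.4, 7.61 and 12.7 FPKM at PN21 and at 1.09, 0.807, 1.67 and 0.532 FPKM at PN98 (difference −2.91, standard error 0.34, adjusted p = 0.00549 from limma). *Cxcl14*, a chemokine, lay at 3.56, 1.31, 1.78 and 2.91 FPKM at PN21 and at 24.3, 11.6, 43.5 and 8.15 FPKM at PN98 (difference 2.54, standard error 0.49, adjusted p = 0.0269). In both genes the ages did not overlap. *Col15a1*, a basement membrane collagen, and *Apod*, a lipid carrier, had differences of −0.68 (adjusted p = 0.374) and 0.84 (adjusted p = 0.219).

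Of 6 further Areg genes listed beside *F3*, 1 was called higher and 1 lower, beside 2.37% and 2.96% of all genes, with a median of −0.39, beside −0.21. *Fmo2*, a flavin monooxygenase, rose from 2.63 ± 0.767 to 10.2 ± 5.11 FPKM (SD, n = 4 each, difference 1.53, standard error 0.33, adjusted p = 0.0404 from limma). *Clec11a*, a secreted growth factor of the lectin family, fell from 6.63 ± 2.23 to 1.78 ± 0.746 FPKM (difference −1.44, standard error 0.29, adjusted p = 0.0307). *Rgcc*, a cell cycle regulator, and *Mgp*, an inhibitor of calcification, had differences of 0.54 (adjusted p = 0.257) and −0.38 (adjusted p = 0.703).

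Stromal surface and matrix genes, 8 in all, gave 0 calls and a median of −0.58, beside −0.21 for all genes. With an unadjusted p under 0.05, 3 were lower and 1 was higher, beside 19.1% and 8.19% of all genes. *Gsn* (gelsolin, an actin-severing protein) had a difference of 1.29 (adjusted p = 0.0552 from limma) and *Dcn* (the proteoglycan decorin) of 0.43 (adjusted p = 0.343). *Thy1*, a surface protein of fibroblasts and of lymphocytes, lay at 70.9 FPKM in m35 and at 4.64 to 20.3 FPKM in the other PN98 mice, beside 72.8 to 95.0 FPKM at PN21. Of the 4 ligands of the PDGF receptors, 0 were called, with 2 higher and 2 lower and a median of −0.02. *Pdgfa* had a difference of −0.39 (adjusted p = 0.349) and *Pdgfb* of −0.62 (adjusted p = 0.186). *Pdgfc* had 0.71 (unadjusted p = 0.0291, adjusted p = 0.147 from limma) and *Pdgfd* 0.35 (adjusted p = 0.310).

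Among 18 tested partners and related proteins of the 9 markers, 1 was called higher and 0 lower, beside 2.37% and 2.96% of all genes. Their median was −0.48. The called gene was *Cd59a*, which like *Cd55* protects cells from complement and acts at its last step. It lay at 36.4, 33.1, 26.1 and 46.9 FPKM at PN21 and at 126, 91.3, 167 and 88.0 FPKM at PN98, with no overlap (difference 1.68, standard error 0.26, adjusted p = 0.0143 from limma). *Tfpi*, the inhibitor of the tissue factor pathway that *F3* starts, had a difference of −0.89 (standard error 0.29, adjusted p = 0.111), and its levels of 8.77 to 20.4 FPKM at PN98 and 20.4 to 32.0 FPKM at PN21 only just failed to overlap. *F7*, the ligand of *F3*, was at 1.02 FPKM or less in every mouse and was not tested. *Ly6e* and *Ly6c1*, relatives of *Ly6a*, had differences of −0.94 (adjusted p = 0.187) and 0.11 (adjusted p = 0.801). *Fap*, the closest relative of *Dpp4*, had −0.97 (adjusted p = 0.110).

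**Figure D5:**
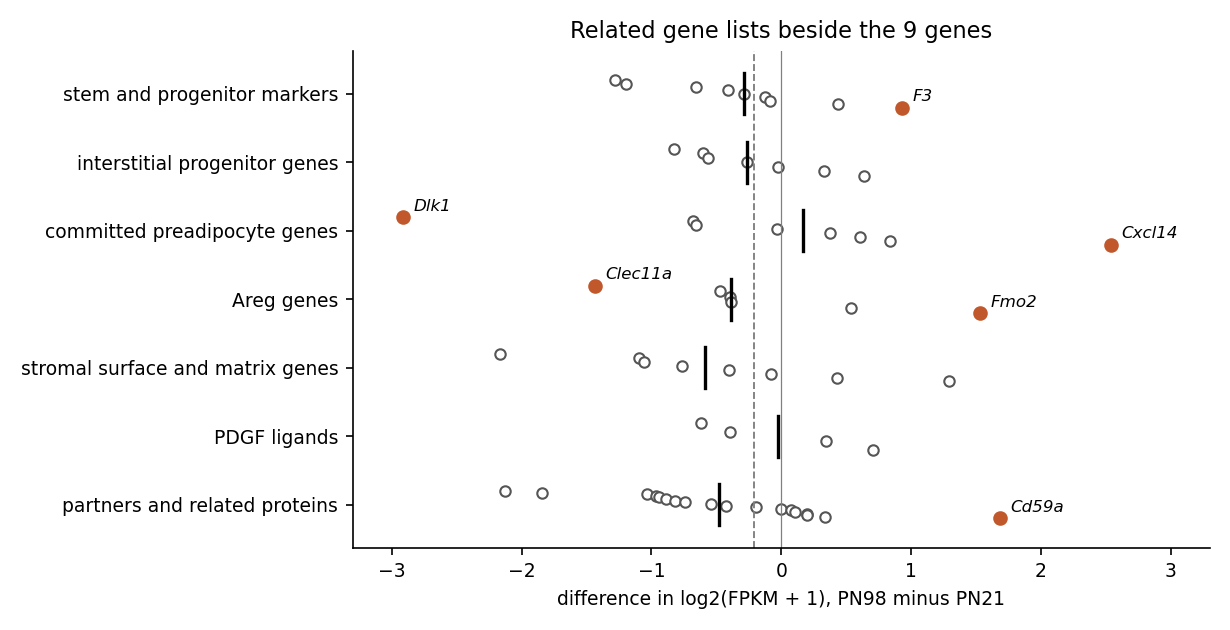
Difference in log2(FPKM + 1), PN98 minus PN21 (horizontal axis), of each tested gene in the 9 markers and in 6 related lists, with filled points for an adjusted p under 0.05 in limma, black bars for the list medians and a dashed line for the median of all genes (−0.21). Filled points lie on both sides of 0 in the preadipocyte and Areg lists.

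Proliferation genes were called lower in 5 of 5 (median −2.24), beside 2.96% of all genes. Adipocyte genes were called higher in 3 of 7 (median 0.99), beside 2.37% of all genes. Of the remaining lists of other cell types, 0 of 7 endothelial genes, 1 of 7 mural genes, 2 of 5 lymph node stroma genes, 1 of 4 epithelial genes and 2 of 4 Schwann cell genes were called, all of them lower. No call was made among 4 skeletal muscle genes, 1 mesothelial gene and 4 sex-linked genes, of which 4, 1 and 0 had an unadjusted p under 0.05 in limma.

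The genes whose pattern over the 8 mice was most like that of each marker were found by the root mean square (RMS) difference of log2(FPKM + 1), each gene centred on its mean, among 16096 genes. The closest to *F3* were *Map9* (RMS 0.0928, beside a spread of *F3* itself of 0.498) and *Ywhab* (0.0991). For *Cd34* they were *Col5a2* (0.0959, beside 0.870) and *Spc25* (0.110), and for *Icam1* they were *Degs2* (0.10, beside 0.996) and *Rnase6* (0.111). The closest to *Pdgfrb* were *Tpm3* (0.0916, beside 0.574) and *Pcdh12* (0.0952). *Pdgfra* was closest to *Gm15782* (0.0807, beside 0.290) and *Rnf2* (0.0912), and *Dpp4* to *Rif1* (0.0768, beside 0.391) and *Rbm12b2* (0.0792). *Ly6a* was closest to *Tmeff2* (0.0910, beside 0.366) and *Zfp69* (0.130), and *Cd55* to *Ehd3* (0.134, beside 0.540) and *Hpgds* (0.148). *Pi16* had the least close neighbours, *Cd209g* (0.196, beside 0.616) and *Il34* (0.243). No marker was among the 2 closest genes of another. With only 2 of 16096 genes kept for each, this cannot show whether the markers vary together.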

How the data were processed

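Paired-end libraries of poly(A)+ RNA were aligned by the authors to mm10 (GRCm38) with STAR 2.3.0. They estimated FPKM per transcript with Cufflinks 2.1.1 and deposited 1 value per transcript and mouse. Of 91969 deposited transcripts, 40506 had values without their decimal mark. Decimals were restored from the deposited standard deviation, average and score. These columns also cover values not shown beyond the 8 mice, so a reading was kept when such values could complete it. Of 40426 transcripts with a single reading, 5014 also stand in the second deposited table, which the authors limited to p under 0.05 in limma. All 5014 equalled that table in all 8 mice within a relative tolerance of 1e-05, and the others could not be checked in this way. A further 26 transcripts were taken from it, and 54 without a single reading were left out. Its columns of the authors' own comparison were not used.

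FPKM were summed per gene by GENCODE vM21 for 88685 transcripts, by the deposited label for 1926 that it lacks, and not for 1304. Log2(FPKM + 1) was compared with limma 3.58.1 in R 4.3.3 (n = 4 per age, no covariates, Benjamini-Hochberg adjustment over 16097 genes with a mean of at least 1 FPKM, threshold 0.05), after a test on simulated data. Adjusted p-values throughout are from limma. P-values set the difference between the ages against the spread between mice of the same age, which limma estimates with information shared over all genes. The labels give no batch.

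The markers, gene lists and tests were chosen with earlier results of these data known. Named are all 9 markers and, of each related list, the genes called (at most 4) and the 2 of highest mean. *Wnt2*, *Bmp7*, *Thy1*, *Itgal*, *Itgam*, *Itgb2*, *Adgre1*, *Acta2*, *Krt19*, *Tfpi*, *F7*, *Fap*, *Pdgfc* and *Pdgfd* were chosen after their values were seen. So were the single lymph node stroma genes named. Alternatives were other scalings, pseudocounts and filters, mouse weights, a mean-variance trend, the main transcript alone and leaving out each mouse. Leaving out transcripts under 200 bases and summing by the deposited gene label were added after the data were seen.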

Additional observations from a re-analysis of the deposited data

Results flagged for a closer look

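*Icam1* in PN21 mouse m138 stood far from the other PN21 mice. It was at 29.0 FPKM there and at 15.3 to 16.5 FPKM in m1, m49 and m145, and its gap to the nearest mouse was 0.91 of the group's range, above Dixon's 95% critical value for 4 samples. In all, 18 groups (9 genes at 2 ages) were examined, and chance passes this value in about 1 of 20 groups. Without m138 the difference of *Icam1* between the ages was −1.08 (adjusted p = 0.317 from limma).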

How the results depend on the processing

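Over the 9 markers and 18 alternative settings, 141 of 162 values kept their direction and their side of the threshold. *Ly6a* turned to 0.14 with nuclear scaling, 0.10 with median of ratios scaling, 0.14 with arrayWeights, and lay between −0.26 (without m49) and 0.066 (without m125) when a mouse was left out, above 0 also without m145 (0.056). *Cd55* turned to 0.17 and 0.14 with these scalings, and lay between −0.41 (without m35) and 0.27 (without m125) when a mouse was left out, above 0 also without m138 (0.024), and *Pdgfra* to 0.16 when summed by the deposited gene label, through the 74-base feature. The cause of the other turns was not tested. With arrayWeights, 3 markers were called lower, *Pdgfrb*, *Cd34* and *Icam1*. Leaving out each mouse gave 0 to 1 markers called higher and 0 to 2 called lower, *Pdgfrb* and *Icam1* without m35. Without a call, *Pdgfra* then lay between −0.39 and −0.12 and *Dpp4* between −0.52 and −0.22. Over all genes, leaving out each mouse gave 100 to 678 called higher and 110 to 2859 called lower, with the highest counts without m35. Other counts past 1.5 times were 275 lower with nuclear scaling, 769 higher with median of ratios scaling, 270 lower at a mean of at least 5 FPKM, and 1155 higher and 3505 lower with arrayWeights. At the transcript level, 1 marker transcript (*F3*, adjusted p = 0.0498 from limma) instead of 0 was called with no condition on zeros and a pseudocount of 1. No paired analysis was possible because the labels give each mouse its own number and the ages share none. With no read counts, FPKM leave the counting error of the low genes unknown.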
